A study of Mus musculus with 8 samples.

Results

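Described here are 34 genes of glycolysis and of the response to low oxygen: 14 glycolytic enzymes, 4 carriers of glucose and lactate, 3 regulators of glycolytic flux, 3 genes of HIF1 and oxygen sensing, and 10 other targets of HIF1. They were chosen by symbol, and their Ensembl identifiers, with the version removed, were matched to 35 of the 54446 genes in each count table. The additional row is a second identifier with the symbol Aldoa (ENSMUSG00000114515), which held 7 to 24 reads per library and is not used below. Of the 34 genes, 33 had enough reads to be tested. Car9, a carbonic anhydrase of hypoxic cells, had 3 to 12 reads per library and was not tested.

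Nuclear RNA was sequenced from C57BL/6 mouse embryonic stem cells carrying a conditional knockout (cKO) of Mettl14 or of Mettl3, with control cells for each. METTL3 and METTL14 form the enzyme that writes N6-methyladenosine into RNA, and the series title names a chromatin role of METTL14 apart from that mark. The Mettl14 line gave 2 control and 2 cKO libraries and so did the Mettl3 line, which makes 4 groups. All cells were grown in medium with serum, LIF, the GSK3 inhibitor CHIR99021 and the MEK inhibitor PD0325901, and no change in oxygen or glucose supply is named in the labels. The sources used here do not give the deleted exons, the Cre, the time after deletion or the number of clones. No label says whether the 2 libraries of a group are separate cultures, and the p-values therefore cover only the spread between these libraries, which may be technical.

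Glycolysis splits glucose into pyruvate in the cytosol, and lactate dehydrogenase turns pyruvate into lactate, which leaves the cell through monocarboxylate carriers. HIF1 is a transcription factor whose alpha subunit is hydroxylated by EGLN enzymes when oxygen is plentiful and is then destroyed. When oxygen is scarce the subunit persists, pairs with ARNT and binds short DNA motifs near genes for glucose uptake, glycolysis, angiogenesis, mitophagy and collagen hydroxylation. Embryonic stem cells are known for a high rate of glycolysis.

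The libraries held 17235889 to 20086128 counted reads. As a check of the labels, Mettl14 fell from 58.3 and 55.0 CPM (reads scaled to a common library size) in its controls to 27.8 and 30.2 CPM in its knockout, and Mettl3 fell from 37.9 and 36.1 CPM to 19.8 and 18.6 CPM. Each targeted gene was thus lower in its own knockout. Mettl14 stood at 26.7 to 30.1 CPM in all 4 libraries of the Mettl3 line. All 10 stem cell markers examined were detected in every group, with a summed level of 3784 to 3820 CPM in Mettl14 controls, 2539 to 2554 in Mettl14 cKO, 1329 to 1362 in Mettl3 control and 1259 to 1267 in Mettl3 cKO. The summed level of 16 fibroblast markers ran in the other order, from 1611 to 1638 CPM in Mettl14 control through 3040 to 3056 and 8799 to 9115 to 10480 to 10590 CPM in Mettl3 cKO. That of 14 primitive endoderm markers ran in the same order as the fibroblast markers. It went from 1037 to 1043 CPM in Mettl14 control through 1663 to 1697 and 2404 to 2439 to 2662 to 2680 CPM in Mettl3 cKO. For 8 trophectoderm markers the order differed, with 330.7 to 333.9 CPM in Mettl14 cKO as the highest. The groups therefore differ in more than the targeted gene, and in bulk RNA fewer cells of a type and less RNA per cell cannot be told apart.

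The HIF dimer binds the letters ACGTG or GCGTG, which read CACGT or CACGC on the other strand. The RefSeq table for GRCm38.p6 held promoter windows of 300 bases, from 250 before to 50 after a gene's start, for 32 of the 34 genes. Slc2a3 and Ndrg1 had no entry. The letters are common: 43.8% of all 32817 windows held at least 1 match on either strand, and 19.6% held ACGTG. Of the 49 windows of the 32 genes, 38 (77.6%) held a match and 27 (55.1%) held ACGTG. By gene, ACGTG was in a window of 9 of 14 enzymes, 3 of 3 carriers, 1 of 3 flux regulators, 3 of 3 oxygen sensing genes and 7 of 9 other targets. A gene with several windows has more chances of a match, and the share by gene was not computed over all genes. Windows of 1 gene can overlap, and many are rich in G and C, so these shares are a description. Windows are shown for the 5 genes called with a log2 change of at least 0.5 after either knockout. A window of Pkm, per length the most abundant enzyme RNA in the Mettl14 line, is shown as well. The windows are printed 5′ to 3′ on the gene's own strand, with matches in capitals. They are Slc16a3 (chr11:120948817-120949116, plus strand), Slc2a1 (chr4:119108495-119108794, plus), P4ha1 (chr10:59323046-59323345, plus), Gapdh (chr6:125165724-125166023, minus), Bnip3 (chr7:138909457-138909756, minus) and the second of the 2 windows of Pkm (chr9:59656977-59657276, plus). The first window of Pkm (chr9:59656326-59656625, plus) held 0 matches and is not shown.
Slc16a3: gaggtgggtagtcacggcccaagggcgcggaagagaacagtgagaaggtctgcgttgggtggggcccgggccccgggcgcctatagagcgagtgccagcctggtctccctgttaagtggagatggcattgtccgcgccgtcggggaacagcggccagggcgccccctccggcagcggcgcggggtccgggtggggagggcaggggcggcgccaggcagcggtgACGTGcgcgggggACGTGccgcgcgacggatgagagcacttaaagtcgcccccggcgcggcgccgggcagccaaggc
Slc2a1: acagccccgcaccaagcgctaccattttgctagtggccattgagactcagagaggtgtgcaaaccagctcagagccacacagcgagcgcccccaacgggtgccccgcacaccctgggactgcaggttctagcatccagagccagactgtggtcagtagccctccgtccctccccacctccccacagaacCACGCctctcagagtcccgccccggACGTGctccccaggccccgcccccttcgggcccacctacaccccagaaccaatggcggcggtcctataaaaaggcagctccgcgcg
P4ha1: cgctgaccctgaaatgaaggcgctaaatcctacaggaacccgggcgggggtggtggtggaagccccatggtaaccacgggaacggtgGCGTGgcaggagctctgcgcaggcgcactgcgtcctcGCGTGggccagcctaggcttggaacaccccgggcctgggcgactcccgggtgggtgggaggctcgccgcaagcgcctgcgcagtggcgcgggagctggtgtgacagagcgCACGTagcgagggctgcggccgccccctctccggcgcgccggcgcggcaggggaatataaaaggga
Gapdh: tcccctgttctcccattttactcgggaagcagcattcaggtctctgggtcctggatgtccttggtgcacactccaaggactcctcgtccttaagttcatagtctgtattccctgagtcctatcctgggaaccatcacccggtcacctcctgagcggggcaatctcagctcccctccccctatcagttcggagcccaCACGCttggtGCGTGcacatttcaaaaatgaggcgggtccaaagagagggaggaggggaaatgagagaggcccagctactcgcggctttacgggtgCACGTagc
Bnip3: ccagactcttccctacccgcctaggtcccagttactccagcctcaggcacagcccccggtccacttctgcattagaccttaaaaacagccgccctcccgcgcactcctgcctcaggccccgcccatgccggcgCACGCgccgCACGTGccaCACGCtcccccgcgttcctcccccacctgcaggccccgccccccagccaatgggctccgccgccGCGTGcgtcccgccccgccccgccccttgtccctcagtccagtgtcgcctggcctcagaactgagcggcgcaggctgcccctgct
Pkm: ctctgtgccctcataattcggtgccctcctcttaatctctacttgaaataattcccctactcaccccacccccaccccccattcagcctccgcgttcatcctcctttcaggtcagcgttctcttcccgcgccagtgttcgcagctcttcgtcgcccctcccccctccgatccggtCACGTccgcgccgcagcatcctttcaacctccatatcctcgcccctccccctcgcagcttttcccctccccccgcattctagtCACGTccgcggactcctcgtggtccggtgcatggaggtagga
Slc16a3 and Slc2a1 each showed 2 matches and rose in both knockouts, while the second Pkm window also showed 2 and P4ha1 and Gapdh 3. The Bnip3 window held 5, of which a pair is the same CACGTG read on both strands. The printed windows were 56.7% to 73.3% G and C. A match is not shown to be bound in these cells.

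Levels between genes were compared per length, as CPM per kilobase of exon (RPKM). They are levels of nuclear RNA, and neither RNA of the whole cell nor protein was measured. In Mettl14 control the highest were Pkm (pyruvate kinase) at 366 RPKM, Slc2a3 (the glucose carrier GLUT3) at 285, Eno1 (enolase) at 173 and Ldha (lactate dehydrogenase A) at 156. In Mettl3 control the order differed, with Slc2a3 at 295 RPKM, Pkm at 111, Slc2a1 (the glucose carrier GLUT1) at 99.1 and Aldoa (aldolase A) at 81.2. Ldha at 62.8 and Eno1 at 61.5 RPKM were neighbours there that differed little. Among the lowest in every group were Car9, at 0.0825 to 0.216 RPKM, and Pfkfb4, at 1.28 to 1.65 RPKM. The 14 enzymes together summed to 1129 and 1142 RPKM in Mettl14 control, 1043 and 1045 in Mettl14 cKO, 529 and 532 in Mettl3 control and 568 and 560 in Mettl3 cKO. The larger difference was thus between the lines, and with TMM scaling the knockouts moved the sum in opposite directions. Upper-quartile scaling shifted the median Mettl3 change of all genes by -0.113 on the log2 scale. The sum was not recomputed under that scaling, so the direction of its small Mettl3 change there is not known.

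**Figure D1:**
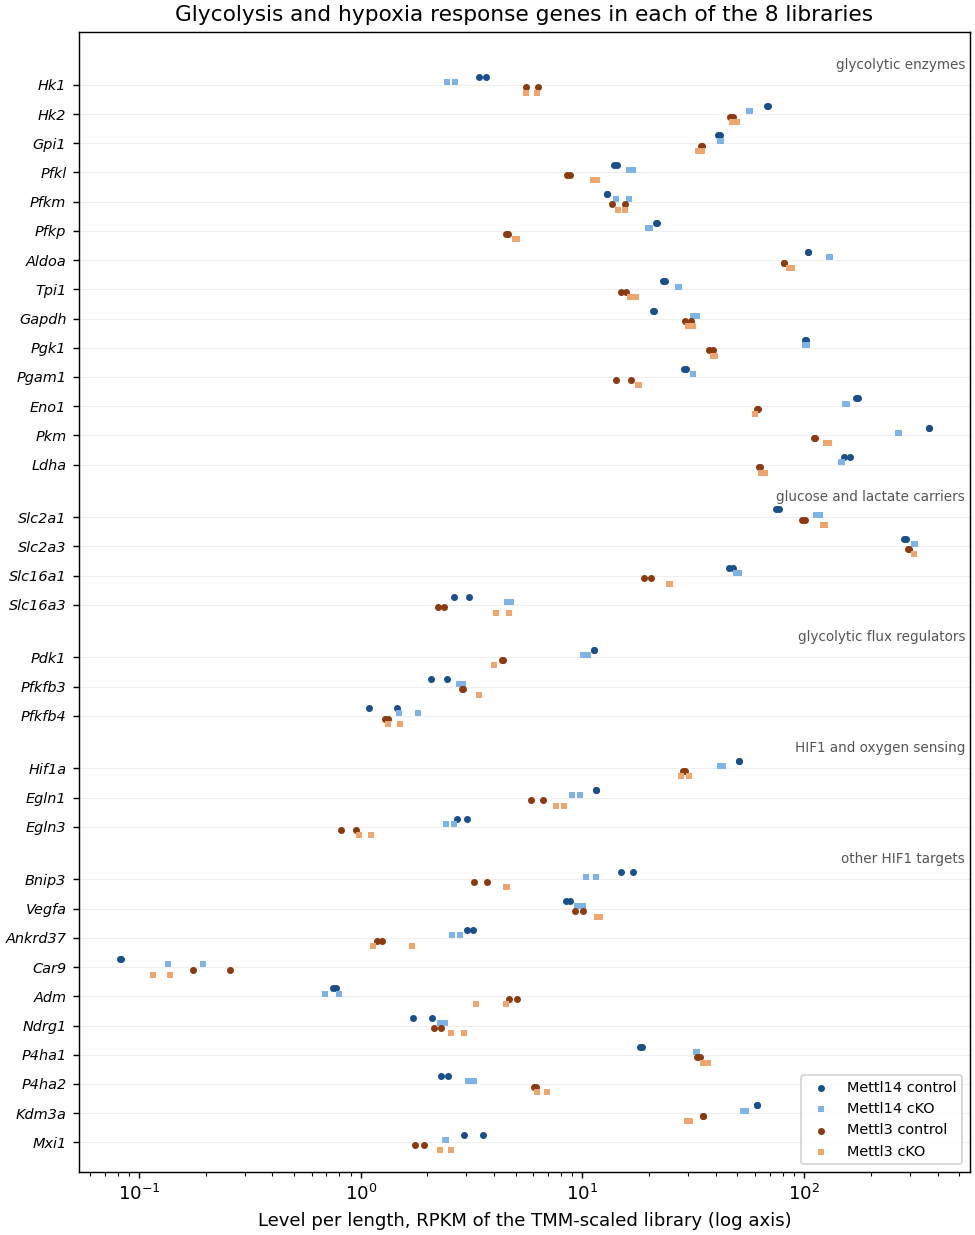
Level of each of the 34 genes per length (RPKM, log axis) in the 8 libraries, 1 point per library, coloured by group and ordered by role. Most enzymes sit furthest right in the Mettl14 control and Mettl14 cKO libraries, while Hk1, Adm and P4ha2 sit further right in the Mettl3 line.

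After loss of Mettl14 the genes split in both directions. With edgeR's quasi-likelihood test and Benjamini-Hochberg adjustment over all 21782 tested genes, at an adjusted p under 0.05, 14 of the 33 tested genes were higher and 12 lower in Mettl14 cKO than in its control, and 7 were not called. Over all genes 40.4% were called (18% higher and 22.4% lower), and the median log2 change was 0.03 both for these genes and for all genes. All genes include many with few reads. At a minimum count of 50, 4078 of 13928 genes were higher and 4100 lower, beside 17 and 9 of the members. A change of at least 0.5 on the log2 scale was called for 5 of them (P4ha1, Slc16a3, Gapdh and Slc2a1 higher, Bnip3 lower), beside 19.6% of all genes. Of the 26 calls, 17 held under every alternative scaling, filter, tool and left-out library. Under DESeq2 9 were higher rather than 14.

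After loss of Mettl3 most called genes were higher. In Mettl3 cKO 16 of the 33 were higher than in control, 1 was lower (Kdm3a) and 16 were not called, beside 20.9% of all genes called (15.1% higher and 5.78% lower). The median log2 change was 0.11, against 0.03 for all genes. At a minimum count of 50, 1865 of 13928 genes were higher and 1795 lower, beside 8 and 4 of the members. Slc16a3 was the one member called with a change of at least 0.5, beside 4.55% of all genes. These calls rest more on the scaling: upper-quartile scaling shifted the median of all genes by -0.11, took the share of higher calls over all genes from 72.3% to 31.8%, and left 8 members higher and 5 lower, while with no filter on low counts 23 were higher. Of the 17 calls 8 held under every alternative, namely Pfkl, Pkm, Slc2a1, Slc16a1, Slc16a3, Egln1 and Vegfa higher and Kdm3a lower.

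**Figure D2:**
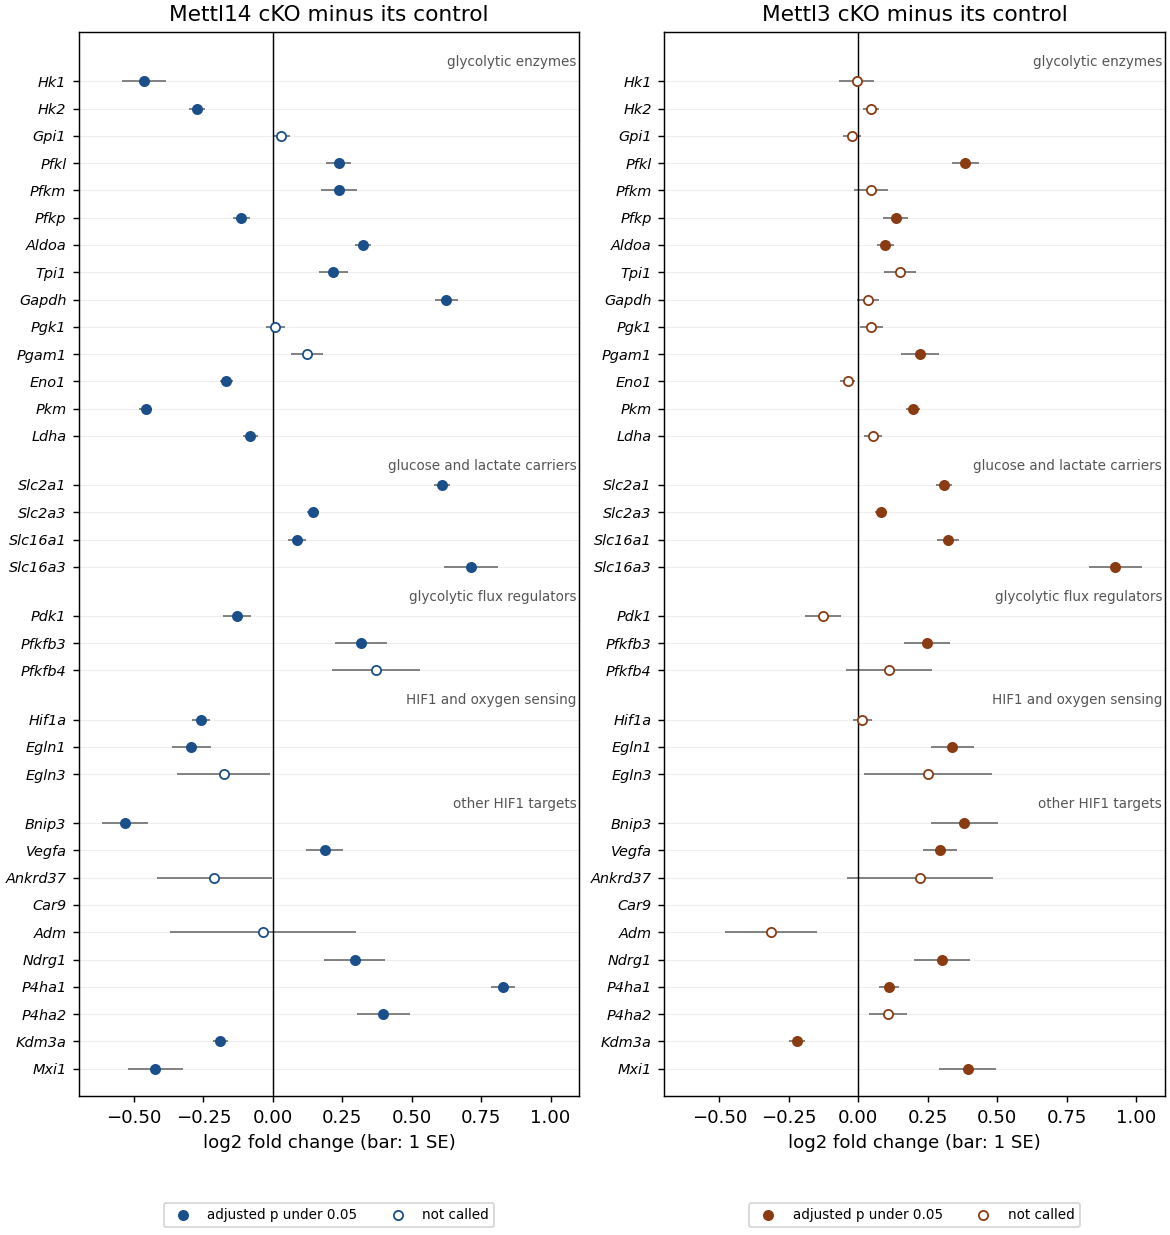
Log2 fold change of each gene in Mettl14 cKO (left) and Mettl3 cKO (right), each against its own control, with a bar of 1 standard error. Filled points passed an adjusted p of 0.05 in edgeR's quasi-likelihood test, open points did not, and Car9 was not tested; the carriers lie to the right of 0 in both panels, while Pkm, Egln1, Bnip3 and Mxi1 lie on opposite sides.

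The first step of glycolysis, phosphorylation of glucose, is run by hexokinases. Hk2, a hexokinase of growing cells and a HIF1 target, stood at 406 and 409 CPM in Mettl14 controls, 339 and 336 in Mettl14 cKO, 284 and 277 in Mettl3 control and 296 and 283 in Mettl3 cKO. The Mettl14 cKO libraries lay below both of their controls, and those of the Mettl3 line overlapped. Hk2 fell by 0.27 on the log2 scale after Mettl14 loss (SE 0.03, edgeR adjusted p = 1.03e-15), and its change after Mettl3 loss was 0.05 (SE 0.03, edgeR adjusted p = 0.293). Hk1, a paralogue, stood at 29.1 and 31.2 CPM in Mettl14 controls, 22.8 and 20.9 in Mettl14 cKO, 53.8 and 47.3 in Mettl3 control and 53.0 and 47.7 in Mettl3 cKO. It fell by 0.47 (SE 0.08) after Mettl14 loss and was within the controls' spread after Mettl3 loss. Per length, Hk2 made up 94.9% to 95.8% of the pair in the Mettl14 line and 88.3% to 89.4% in the Mettl3 line. Gpi1, which turns glucose 6-phosphate into fructose 6-phosphate, was called in neither knockout and ran from 215 to 273 CPM over the 8 libraries.

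Phosphofructokinase commits sugar to glycolysis, and its 3 genes did not move together. Pfkl stood at 92.6 and 95.4 CPM in Mettl14 controls, 113 and 109 in Mettl14 cKO, 57.1 and 58.9 in Mettl3 control and 74.2 and 77.4 in Mettl3 cKO. Both knockouts were above their controls with no overlap, by 0.24 (SE 0.04, edgeR adjusted p = 2.3e-06) and 0.39 (SE 0.05, edgeR adjusted p = 4.79e-11) on the log2 scale. Pfkp stood at 290 and 289 CPM in Mettl14 controls, 266 and 270 in Mettl14 cKO, 61.9 and 60.4 in Mettl3 control and 66.5 and 67.8 in Mettl3 cKO. It was called lower after Mettl14 loss (-0.11, SE 0.03) and higher after Mettl3 loss (0.13, SE 0.05), though neither call held under upper-quartile scaling (edgeR adjusted p = 0.0755 and 0.801). The first was also lost without Mettl14 cKO replicate 1 (edgeR adjusted p = 0.0659). Over the alternatives the adjusted p ran from 0.000124 to 0.148 for the first and from 4.83e-06 to 0.801 for the second. Pfkm stood at 43.1 and 43.3 CPM in Mettl14 controls, 47.3 and 54.3 in Mettl14 cKO, 45.6 and 51.7 in Mettl3 control and 52.2 and 48.2 in Mettl3 cKO. Its call after Mettl14 loss, a rise of 0.24, was lost without Mettl14 cKO replicate 2, where the value was 0.12, and under DESeq2 (0.21, adjusted p = 0.0684).

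As shares of the 3 genes per length, which need no scaling between libraries, Pfkp made up 44.7% and 44.2% in Mettl14 control, 38.9% and 38.3% in Mettl14 cKO, 17.2% and 15.6% in Mettl3 control and 15.6% and 16.3% in Mettl3 cKO. Pfkp was thus the largest of the 3 in the Mettl14 line, and Pfkm the largest in the Mettl3 line, where it made up 46.4% to 53.7%. The share of Pfkl was higher in both knockouts, at 33.3% and 30.9% against 28.6% and 29.3%, and at 35.1% and 37.3% against 31.9% and 30.6%. Pfkp shares 5.58% of its exon bases with Pitrm1 on the opposite strand and Pfkm 10.2% with Gm26513; the sources used here do not give the strand setting of the counting.

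In the middle steps, aldolase A splits the sugar and triose phosphate isomerase interconverts the products. Aldoa stood at 304 and 304 CPM in Mettl14 controls, 383 and 378 in Mettl14 cKO, 236 and 236 in Mettl3 control and 250 and 256 in Mettl3 cKO. It rose by 0.32 (SE 0.03, edgeR adjusted p = 1.17e-19) after Mettl14 loss. After Mettl3 loss the value was 0.10 (SE 0.03, edgeR adjusted p = 0.0105), which became 0.15 without Mettl3 cKO replicate 1 and turned to -0.02 under upper-quartile scaling (edgeR adjusted p = 0.777, in a range of 9.21e-09 to 0.777). Tpi1 stood at 64.6 and 63.7 CPM in Mettl14 controls, 74.3 and 74.9 in Mettl14 cKO, 41.2 and 43.1 in Mettl3 control and 48.3 and 45.3 in Mettl3 cKO. The Tpi1 groups did not overlap in either line, and the gene rose by 0.22 (SE 0.05) after Mettl14 loss, with 0.15 (SE 0.06, edgeR adjusted p = 0.0537) after Mettl3 loss.

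Gapdh, which oxidises glyceraldehyde 3-phosphate, showed the largest rise among the enzymes after Mettl14 loss. It stood at 86.7 and 85.9 CPM in Mettl14 controls, 136 and 131 in Mettl14 cKO, 119 and 127 in Mettl3 control and 130 and 123 in Mettl3 cKO. Gapdh rose by 0.62 on the log2 scale, 1.54-fold, in Mettl14 cKO (SE 0.04, edgeR adjusted p = 4.68e-28), and in the Mettl3 line the groups overlapped (0.04, SE 0.04). Within the summed RPKM of the 14 enzymes its share was 1.86% and 1.82% in Mettl14 control, 3.15% and 3.02% in Mettl14 cKO, and 5.32% to 5.79% in the Mettl3 line. Gapdh is often used as a standard for RNA amounts. The annotation holds 2 processed copies of Gapdh that carry its name, likewise for Aldoa, Pgam1 and Ldha, and 3 for Pgk1; the sources used here do not say how reads matching several places were counted, which leaves the levels of these genes uncertain.

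Pgk1, the first enzyme of the pathway to make ATP, stood at 228 and 226 CPM in Mettl14 controls, 231 and 226 in Mettl14 cKO, 86.8 and 83.8 in Mettl3 control and 89.0 and 87.3 in Mettl3 cKO. It was called in neither knockout. Pgam1, phosphoglycerate mutase, stood at 57.1 and 58.2 CPM in Mettl14 controls, 62.7 and 62.7 in Mettl14 cKO, 28.1 and 33.0 in Mettl3 control and 35.8 and 35.3 in Mettl3 cKO. Its call after Mettl3 loss (0.22, SE 0.07, edgeR adjusted p = 0.0107) was lost without Mettl3 control replicate 1, where the value was 0.14, while leaving out Mettl3 control replicate 2 gave 0.37. It was also lost under upper-quartile scaling (edgeR adjusted p = 0.287), DESeq2 (adjusted p = 0.109), a minimum count of 50 (edgeR adjusted p = 0.117) and only the compared libraries (edgeR adjusted p = 0.0765). Its value after Mettl14 loss was 0.12 (SE 0.06, edgeR adjusted p = 0.0873).

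Pkm and Eno1, late in the pathway, were per length the most abundant enzyme RNAs in the Mettl14 line, and both fell after Mettl14 loss. Pkm stood at 1827 and 1832 CPM in Mettl14 controls, 1320 and 1342 in Mettl14 cKO, 556 and 558 in Mettl3 control and 648 and 630 in Mettl3 cKO. Replicates differed by little beside the gaps between groups. Pkm fell by 0.46 on the log2 scale, to 0.728 of control, in Mettl14 cKO (SE 0.02, edgeR adjusted p = 1.48e-40) and rose by 0.20, 1.15-fold, in Mettl3 cKO (SE 0.02, edgeR adjusted p = 1.34e-11). Among the alternatives the rise ran down to 0.08 (upper-quartile scaling, edgeR adjusted p = 0.00525, the highest of its alternatives). Pkm made up 32.4% and 32.1% of the summed enzyme RPKM in Mettl14 control, 25.3% and 25.7% in Mettl14 cKO, 21% and 21% in Mettl3 control and 22.8% and 22.5% in Mettl3 cKO. A transcript on the same strand, Gm49759, shares 15.3% of its exon bases, and the sources do not say how reads in the shared bases were counted.

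Eno1 stood at 927 and 938 CPM in Mettl14 controls, 824 and 836 in Mettl14 cKO, 333 and 329 in Mettl3 control and 322 and 323 in Mettl3 cKO. It fell by 0.17 (SE 0.02, edgeR adjusted p = 1.21e-09) after Mettl14 loss and was not called after Mettl3 loss (-0.04, SE 0.03). Ldha stood at 501 and 531 CPM in Mettl14 controls, 489 and 487 in Mettl14 cKO, 209 and 208 in Mettl3 control and 212 and 220 in Mettl3 cKO. Its call after Mettl14 loss (-0.08, SE 0.03, edgeR adjusted p = 0.00972) was lost without Mettl14 control replicate 2 (-0.04) or Mettl14 cKO replicate 1 (-0.08), and the value was -0.14 without Mettl14 control replicate 1. The call was also lost under upper-quartile scaling (edgeR adjusted p = 0.28), a minimum count of 50 (edgeR adjusted p = 0.514) and only the compared libraries (edgeR adjusted p = 0.0987).

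By count, 5 of the 14 enzymes were higher and 6 lower in Mettl14 cKO, with a median of 0.02 (beside 18% and 22.4% of all genes), and 5 were higher and 0 lower in Mettl3 cKO, with a median of 0.05 (beside 15.1% and 5.78%). The count of enzymes lower in Mettl3 cKO was also 0 at an unadjusted edgeR p under 0.05, by DESeq2 and by limma-voom, while upper-quartile scaling called Gpi1 and Eno1 lower (-0.14 and -0.15). Summed CPM of the enzymes stood at 5121 and 5175 in Mettl14 control, 4580 and 4597 in Mettl14 cKO, 2334 and 2336 in Mettl3 control and 2500 and 2457 in Mettl3 cKO. Within each line mitochondrial mRNAs, which stand for RNA from outside the nucleus, moved in the same direction as this sum, but the order of the 4 groups differed. The 10 mitochondrial mRNAs summed to 9962 and 10060 CPM in Mettl14 controls, 6289 and 6329 in Mettl14 cKO, 5061 and 5357 in Mettl3 control and 6744 and 7281 in Mettl3 cKO. Of the 9 tested, 6 fell after Mettl14 loss and 6 rose after Mettl3 loss; their part in the enzyme values was not tested.

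**Figure D3:**
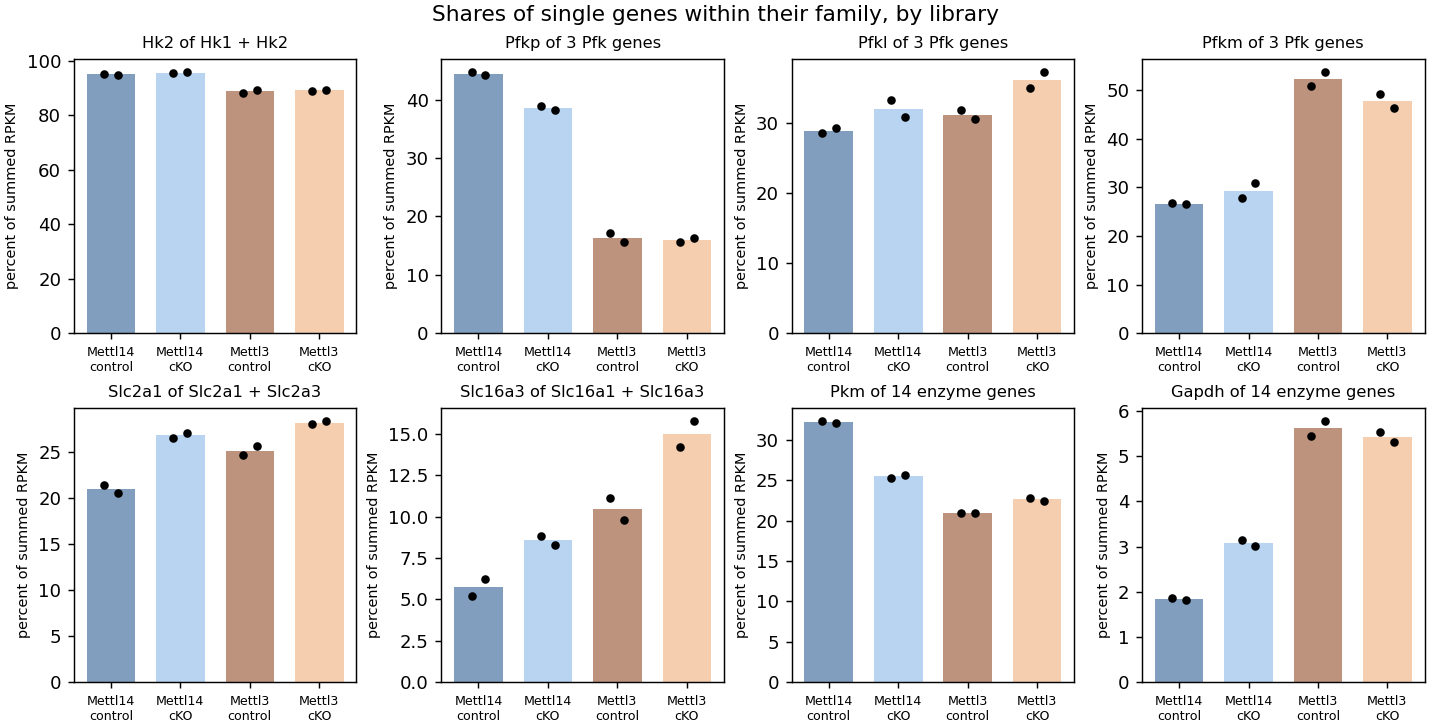
Share of single genes in the summed RPKM of their family, or of all 14 enzymes, in percent, with bars at the group mean and points for the 2 libraries of each group. Pfkp is at 44.2% and 44.7% in Mettl14 control and at most 17.2% in the Mettl3 line, and Slc16a3 is higher in each knockout than in its control.

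Of the 4 carriers all 4 were called higher in both knockouts (beside 6% of all genes), with a median log2 change of 0.38 after Mettl14 loss and 0.32 after Mettl3 loss. Slc16a3, the lactate exporter MCT4, stood at 13.95 and 16.3 CPM in Mettl14 controls, 25.3 and 24.4 in Mettl14 cKO, 12.6 and 11.8 in Mettl3 control and 21.7 and 24.7 in Mettl3 cKO. Every knockout library lay above every control library of both lines. The gene rose by 0.71 (SE 0.10, 1.64-fold, edgeR adjusted p = 1.27e-10) after Mettl14 loss and by 0.93 (SE 0.10, 1.9-fold, edgeR adjusted p = 1.23e-14) after Mettl3 loss, and both calls held under every alternative. Slc16a1, the monocarboxylate carrier MCT1, stood at 212 and 204 CPM in Mettl14 controls, 217 and 224 in Mettl14 cKO, 84.1 and 90.6 in Mettl3 control and 109 and 110 in Mettl3 cKO. Its rise after Mettl3 loss was 0.32 (SE 0.04, edgeR adjusted p = 3.82e-11). After Mettl14 loss it was 0.09 (SE 0.03, edgeR adjusted p = 0.033), and that call was lost without Mettl14 control replicate 1 (edgeR adjusted p = 0.0713) or 2 (0.28), without Mettl14 cKO replicate 2 (0.442, the highest, in a range down to 0.000109) and under DESeq2 (adjusted p = 0.389).

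Slc2a1 stood at 269 and 262 CPM in Mettl14 controls, 396 and 415 in Mettl14 cKO, 341 and 353 in Mettl3 control and 427 and 434 in Mettl3 cKO. In neither line did the groups overlap. It rose by 0.61 (SE 0.03, 1.53-fold, edgeR adjusted p = 7.5e-42) after Mettl14 loss and by 0.31 (SE 0.03, 1.24-fold, edgeR adjusted p = 2.34e-18) after Mettl3 loss, under every alternative. Slc2a3 stood at 2042 and 2092 CPM in Mettl14 controls, 2265 and 2304 in Mettl14 cKO, 2150 and 2125 in Mettl3 control and 2267 and 2258 in Mettl3 cKO. Its rise after Mettl14 loss was 0.14 (SE 0.02, edgeR adjusted p = 2.39e-09). After Mettl3 loss it was 0.08 (SE 0.02, edgeR adjusted p = 0.0016), 0.13 without Mettl3 cKO replicate 2 and -0.03 under upper-quartile scaling (edgeR adjusted p = 0.311, in a range of 5.5e-14 to 0.916). Per length, Slc2a1 made up 21.4% and 20.5% of the glucose carrier pair in Mettl14 control, 26.5% and 27.1% in Mettl14 cKO, 24.7% and 25.6% in Mettl3 control and 28.0% and 28.4% in Mettl3 cKO. Slc16a3 made up 5.2% and 6.25% of the monocarboxylate pair in Mettl14 control against 8.84% and 8.31% in Mettl14 cKO, and 11.1% and 9.81% in Mettl3 control against 14.2% and 15.8% in Mettl3 cKO. These shares, which no scaling between libraries can move, were higher in each knockout without overlap.

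The fibroblast markers were also mostly higher in both knockouts. After Mettl14 loss 13 of the 15 tested rose by edgeR and 0 fell, beside 18% and 22.4% of all genes. At an unadjusted edgeR p under 0.05 1 was lower, and by DESeq2 or limma-voom 0. After Mettl3 loss 9 rose and 1 fell, beside 15.1% and 5.78% of all genes. Mettl3 control held more fibroblast marker RNA than Mettl14 control (8799 to 9115 against 1611 to 1638 CPM). Of the carriers, Slc2a1 and Slc2a3 were called higher in Mettl3 control than in Mettl14 control, and Slc16a1 and Slc16a3 lower. The calls for Slc2a3 and Slc16a3 did not hold under every alternative. The part of these cells or genes in the carrier values was not tested.

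The flux regulators set how fast glycolysis runs and where pyruvate goes. Pdk1, the kinase that shuts pyruvate dehydrogenase, stood at 87.4 and 87.95 CPM in Mettl14 controls, 82.5 and 78.0 in Mettl14 cKO, 33.7 and 34.2 in Mettl3 control and 31.0 and 31.1 in Mettl3 cKO. Both knockouts lay below their controls, at -0.13 (SE 0.05, edgeR adjusted p = 0.0304) and -0.13 (SE 0.07, edgeR adjusted p = 0.162) on the log2 scale. The first call was lost without Mettl14 control replicate 1 (-0.15) or 2 (-0.12) and without Mettl14 cKO replicate 2 (-0.10). It was also lost under upper-quartile scaling (edgeR adjusted p = 0.183), DESeq2 (adjusted p = 0.0673), no filter (edgeR adjusted p = 0.0515), a minimum count of 50 (edgeR adjusted p = 0.248) and only the compared libraries (edgeR adjusted p = 0.0869). Pfkfb3, which makes the activator of phosphofructokinase, stood at 15.7 and 18.6 CPM in Mettl14 controls, 21.8 and 21.03 in Mettl14 cKO, 22.0 and 21.6 in Mettl3 control and 25.8 and 25.9 in Mettl3 cKO. Pfkfb3 was called higher in both knockouts, by 0.32 (SE 0.09, edgeR adjusted p = 0.00334) and 0.25 (SE 0.08, edgeR adjusted p = 0.0237). Without Mettl14 control replicate 1 the first was 0.19 (edgeR adjusted p = 0.225, in a range of 0.00029 to 0.225), and upper-quartile scaling ended the second (edgeR adjusted p = 0.281, in a range of 0.000201 to 0.281). Its paralogue Pfkfb4 stood at 7.1 and 5.34 CPM in Mettl14 controls, 8.82 and 7.285 in Mettl14 cKO, 6.29 and 6.48 in Mettl3 control and 7.33 and 6.45 in Mettl3 cKO, and was called in neither knockout.

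Of the oxygen sensing genes, Hif1a codes for the regulated subunit of HIF1. It stood at 301 and 300 CPM in Mettl14 controls, 255 and 247 in Mettl14 cKO, 171 and 167 in Mettl3 control and 164 and 178 in Mettl3 cKO. Hif1a fell by 0.26 (SE 0.03, to 0.835 of control, edgeR adjusted p = 1.73e-12) after Mettl14 loss under every alternative. After Mettl3 loss the groups overlapped and the value was 0.01 (SE 0.03, edgeR adjusted p = 0.821), and over 16 alternatives the value ran from -0.10 to 0.12, called lower in 1 and higher in 2. HIF1 is controlled mostly through the stability of this protein, which these data do not measure.

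Egln1, the main oxygen-dependent prolyl hydroxylase acting on HIF1, stood at 41.2 and 41.2 CPM in Mettl14 controls, 32.2 and 35.0 in Mettl14 cKO, 23.8 and 21.2 in Mettl3 control and 27.2 and 29.6 in Mettl3 cKO. The knockouts moved it in opposite directions with no overlap in either line. It fell by 0.29 (SE 0.07, edgeR adjusted p = 0.000294) after Mettl14 loss and rose by 0.34 (SE 0.08, edgeR adjusted p = 0.000374) after Mettl3 loss, and both calls held under every alternative. Egln3, a hydroxylase that is itself a HIF1 target, stood at 8.06 and 7.22 CPM in Mettl14 controls, 6.47 and 7.03 in Mettl14 cKO, 2.16 and 2.53 in Mettl3 control and 2.98 and 2.61 in Mettl3 cKO. Its values were -0.18 (SE 0.17) and 0.25 (SE 0.23), and it was called in neither.

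Of 9 tested other HIF1 targets 4 were higher and 3 lower in Mettl14 cKO (median -0.03, beside 18% and 22.4% of all genes), and 5 were higher and 1 lower in Mettl3 cKO (median 0.22, beside 15.1% and 5.78%). P4ha1, a subunit of the collagen prolyl hydroxylase, had the largest rise of all 33 genes after Mettl14 loss. It stood at 76.4 and 75.1 CPM in Mettl14 controls, 134 and 135 in Mettl14 cKO, 135 and 139 in Mettl3 control and 145 and 151 in Mettl3 cKO. P4ha1 rose by 0.83 (SE 0.04, 1.78-fold, edgeR adjusted p = 7.48e-39) and so came to the level of Mettl3 control. After Mettl3 loss the value was 0.11 (SE 0.04, edgeR adjusted p = 0.0212), 0.18 without Mettl3 cKO replicate 1 and -0.002 under upper-quartile scaling (edgeR adjusted p = 0.983, in a range of 5.67e-07 to 0.983). P4ha2, its paralogue, stood at 14.4 and 15.4 CPM in Mettl14 controls, 19.0 and 20.3 in Mettl14 cKO, 38.6 and 37.6 in Mettl3 control and 38.7 and 43.4 in Mettl3 cKO. It rose by 0.40 (SE 0.10, edgeR adjusted p = 0.000207) after Mettl14 loss and was not called after Mettl3 loss (0.11, SE 0.07). P4ha1 made up 88.1% to 91.4% of the pair per length in the Mettl14 line and 84.1% to 85.0% in the Mettl3 line. Both enzymes act on collagens, and the collagen genes among the fibroblast markers were higher in Mettl14 cKO as well (Col1a1, Col1a2, Col3a1, Col5a1, Col5a2 and Col6a1 were all called); their part in the P4ha1 value was not tested.

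Bnip3, a mitophagy receptor, stood at 38.2 and 33.9 CPM in Mettl14 controls, 23.6 and 26.1 in Mettl14 cKO, 7.38 and 8.45 in Mettl3 control and 10.4 and 10.2 in Mettl3 cKO. It moved the opposite way in the 2 knockouts. Bnip3 fell by 0.53 (SE 0.08, to 0.691 of control, edgeR adjusted p = 1.73e-08) after Mettl14 loss and was called higher by 0.38 (SE 0.12, edgeR adjusted p = 0.0141) after Mettl3 loss. The second call was lost without Mettl3 control replicate 1 (0.32). It was also lost under upper-quartile scaling (edgeR adjusted p = 0.115), DESeq2 (adjusted p = 0.0805), a minimum count of 50 (edgeR adjusted p = 0.0511) and only the compared libraries (edgeR adjusted p = 0.0666). Mxi1, a MAX-binding repressor that counters MYC, stood at 24.3 and 20.03 CPM in Mettl14 controls, 16.5 and 16.5 in Mettl14 cKO, 12.1 and 13.1 in Mettl3 control and 15.6 and 17.4 in Mettl3 cKO. Its changes were -0.42 (SE 0.10, edgeR adjusted p = 0.00013) and 0.39 (SE 0.10, edgeR adjusted p = 0.00205). The first was -0.29 without Mettl14 control replicate 1 (edgeR adjusted p = 0.0579, in a range of 2.71e-05 to 0.0579), and DESeq2 ended the second (adjusted p = 0.0511).

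Kdm3a, a histone H3K9 demethylase that HIF1 induces, was the one gene called lower in both knockouts (beside 2.45% of all genes). It stood at 504 and 505 CPM in Mettl14 controls, 435 and 449 in Mettl14 cKO, 287 and 289 in Mettl3 control and 243 and 251 in Mettl3 cKO. The groups did not overlap in either line, and it fell by 0.19 (SE 0.03, edgeR adjusted p = 8.18e-10) and 0.22 (SE 0.03, edgeR adjusted p = 3.48e-10), under every alternative. Vegfa, the angiogenic growth factor, ran from 36.0 CPM in a Mettl14 control to 51.2 CPM in a Mettl3 cKO library. It rose by 0.29 (SE 0.06, edgeR adjusted p = 7.37e-05) after Mettl3 loss. The call after Mettl14 loss (0.19, SE 0.07, edgeR adjusted p = 0.017) was lost without Mettl14 control replicate 1 (0.14) or Mettl14 cKO replicate 2 (0.13) and under DESeq2 (adjusted p = 0.167).

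Ndrg1, a stress-responsive gene of differentiation, ran from 11.3 to 19.4 CPM and was called higher in both knockouts, by 0.29 or 0.30 (SE 0.11 and 0.10). The first call was lost without Mettl14 control replicate 1 (0.14) or Mettl14 cKO replicate 2 (0.24) and under DESeq2 (adjusted p = 0.17), and the value was 0.45 without Mettl14 control replicate 2. The second was lost without Mettl3 control replicate 2 (0.28) or Mettl3 cKO replicate 2 (0.24). It was also lost under upper-quartile scaling (edgeR adjusted p = 0.192), DESeq2 (adjusted p = 0.176), a minimum count of 50 (edgeR adjusted p = 0.0914) and only the compared libraries (edgeR adjusted p = 0.0613). Adm, the vasodilator adrenomedullin, stood at 1.22 and 1.26 CPM in Mettl14 controls, 1.12 and 1.29 in Mettl14 cKO, 8.21 and 7.54 in Mettl3 control and 5.37 and 7.31 in Mettl3 cKO. Ankrd37 stood at 4.93 and 4.65 CPM in Mettl14 controls, 4.30 and 3.98 in Mettl14 cKO, 1.92 and 1.82 in Mettl3 control and 1.75 and 2.61 in Mettl3 cKO. Neither was called in a knockout, and at these few reads their standard errors ran from 0.17 to 0.34, so changes of that size were not detectable.

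The difference between the 2 knockout effects was tested directly, as the Mettl14 change minus the Mettl3 change. It passed for 16 of the 33 genes, 5 higher and 11 lower, beside 33.2% of all genes (12.7% higher and 20.5% lower). Pkm differed by -0.66 (SE 0.03, edgeR adjusted p = 2.87e-39), P4ha1 by 0.72 (SE 0.06, edgeR adjusted p = 7.44e-23) and Gapdh by 0.59 (SE 0.06, edgeR adjusted p = 7.72e-17). Bnip3 differed by -0.91 (SE 0.15), Mxi1 by -0.82 (SE 0.14) and Egln1 by -0.63 (SE 0.11). Those 6 were the ones past 0.5, beside 18.6% of all genes, and each held under every alternative. Slc2a1 rose more after Mettl14 loss (0.30, SE 0.04, edgeR adjusted p = 1.34e-10), while for Slc16a3 no difference was found (-0.21, SE 0.14, edgeR adjusted p = 0.243). Side by side, 10 of the 33 genes were called higher in both knockouts, beside 6% of all genes (10 of 14 and 10 of 16 higher calls). They were Pfkl, Aldoa, Slc2a1, Slc2a3, Slc16a1, Slc16a3, Pfkfb3, Vegfa, Ndrg1 and P4ha1. Only Pfkl, Slc2a1 and Slc16a3 of these kept both calls under every alternative. In opposite directions 5 were called, beside 5.24% of all genes, namely Pfkp, Pkm, Egln1, Bnip3 and Mxi1. Of those, only Pkm and Egln1 kept both calls under every alternative. Under upper-quartile scaling, which shifted the median difference of all genes by 0.16, the split was 10 higher and 7 lower.

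The control lines differed more from each other than either knockout did from its control. Between Mettl14 control and Mettl3 control 21 of the 33 genes were higher and 10 lower in the Mettl14 line, beside 67.8% of all genes (33.6% higher and 34.1% lower), with a median of 0.60 against -0.09 for all genes. A change of at least 1 was called for 12 of them, beside 31.7% of all genes. Of the 14 enzymes 11 were higher, by 2.24 for Pfkp (SE 0.04, 4.74-fold, edgeR adjusted p = 5.74e-94), 1.71 for Pkm (SE 0.02, 3.28-fold), 1.49 for Eno1 (2.82-fold), 1.41 for Pgk1 (2.66-fold) and 1.31 for Ldha (2.48-fold). Hk1 (-0.75), Gapdh (-0.52) and Pfkm (-0.17) were lower. Bnip3 was 2.19 higher (SE 0.10, 4.55-fold), Egln3 1.70, Pdk1 1.37, Slc16a1 1.25, Egln1 0.88 and Hif1a 0.83. Adm was lower in the Mettl14 line (-2.67, SE 0.23, 0.158 of the Mettl3 control level, edgeR adjusted p = 1.52e-20), as were P4ha2 (-1.36) and P4ha1 (-0.86). Mettl14 control also held more stem cell marker RNA and less fibroblast marker RNA, as given above (9 of 10 stem cell markers higher, 14 of 15 tested fibroblast markers lower), and 6 of 9 tested mitochondrial mRNAs higher. Line, culture and library preparation cannot be told apart here, so this comparison describes the libraries. Of the 31 calls 25 held under every alternative, and 6 rather than 10 were lower without Mettl14 control replicate 1.

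**Figure D4:**
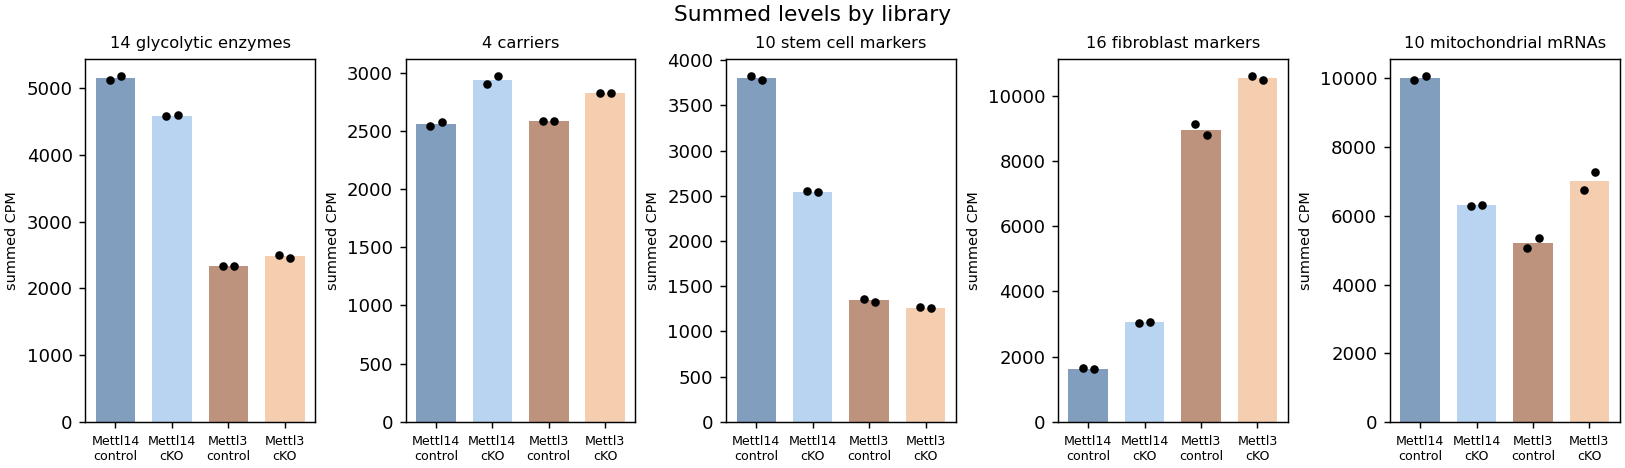
Summed CPM of the 14 enzymes, the 4 carriers, 10 stem cell markers, 16 fibroblast markers and 10 mitochondrial mRNAs, with bars at the group mean and points for the 2 libraries of each group. With TMM scaling, enzymes and mitochondrial mRNAs fall from Mettl14 control to Mettl14 cKO and are higher in Mettl3 cKO than in Mettl3 control. Carriers are higher in both knockouts, and fibroblast markers are highest in the Mettl3 line.

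Related genes were counted over whole pathway lists, to be read beside 18% of all genes called higher and 22.4% lower in Mettl14 cKO and 15.1% higher and 5.78% lower in Mettl3 cKO. Genes that set the level or activity of HIF (its other subunits, the VHL complex and coactivators) were mostly lower after Mettl14 loss, with 10 of 14 lower and 1 higher (median -0.22), and 6 of 14 were higher and 0 lower after Mettl3 loss (median 0.05). Tested as a difference, 10 were lower and 0 higher by edgeR (beside 20.5% and 12.7% of all genes), with 1 higher at an unadjusted p under 0.05. The counts of 0 were also 0 by DESeq2 and limma-voom. Epas1, the HIF2 alpha subunit, stood at 101 and 105 CPM in Mettl14 controls, 60.5 and 57.9 in Mettl14 cKO, 61.8 and 59.8 in Mettl3 control and 64.2 and 58.5 in Mettl3 cKO, and fell by 0.80 (SE 0.05, edgeR adjusted p = 4.6e-31) after Mettl14 loss. It was not called after Mettl3 loss (0.01, SE 0.05). Cited2, which competes with HIF1 for its coactivators, stood at 61.6 and 54.6 CPM in Mettl14 controls, 13.6 and 12.1 in Mettl14 cKO, 11.9 and 12.35 in Mettl3 control and 20.2 and 17.9 in Mettl3 cKO. It fell by 2.18 (SE 0.08) after Mettl14 loss and rose by 0.65 (SE 0.10) after Mettl3 loss. Cul2, the scaffold of the VHL ubiquitin ligase, fell by 0.43 (SE 0.04) after Mettl14 loss. The coactivator Crebbp rose by 0.30 (SE 0.03) after Mettl3 loss and fell by 0.18 (SE 0.03) after Mettl14 loss.

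Further HIF targets were mostly higher in Mettl14 cKO, with 16 of 26 higher and 6 lower (median 0.29, beside 18% and 22.4% of all genes), and 11 were higher and 1 lower in Mettl3 cKO (median 0.10, beside 15.1% and 5.78%). Lox, the collagen crosslinking enzyme, stood at 133 and 139 CPM in Mettl14 controls, 322 and 323 in Mettl14 cKO, 675 and 678 in Mettl3 control and 761 and 786 in Mettl3 cKO, and rose by 1.25 (SE 0.03) and 0.19 (SE 0.03). P4hb, the partner subunit of P4ha1, rose by 0.71 (SE 0.02) after Mettl14 loss and was also called higher after Mettl3 loss. Like P4ha1, Lox and P4hb serve collagen and were called lower in Mettl14 control than in Mettl3 control, as were 14 of 15 tested fibroblast markers. The part of fibroblast marker content in the values of these genes was not tested. Ak4, a mitochondrial adenylate kinase, stood at 109 and 117 CPM in Mettl14 controls, 52.2 and 49.1 in Mettl14 cKO, 42.3 and 44.3 in Mettl3 control and 29.4 and 29.3 in Mettl3 cKO. It fell in both, by 1.16 (SE 0.05) and 0.56 (SE 0.06). Bhlhe40, a repressor of the clock and of hypoxic cells, rose after Mettl3 loss by 0.59 (SE 0.06). It was also called higher after Mettl14 loss, and the test of the difference called the Mettl14 rise the larger.

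In the pentose phosphate pathway 3 of 7 genes were higher and 2 lower in Mettl14 cKO, and 2 were higher in Mettl3 cKO (Pgd and Pgls, the Pgls call holding in 10 of 16 alternatives). Over all genes 40.4% were called in Mettl14 cKO and 20.9% in Mettl3 cKO, which is the background for this list and the next 3. Pgd, which makes NADPH, rose by about the same amount in both, 0.48 (SE 0.04) and 0.51 (SE 0.04), from 95.9 and 93.9 CPM to 133 and 132 CPM and from 100.5 and 96.9 to 147 and 135 CPM, and Tkt rose by 0.26 (SE 0.03) after Mettl14 loss. Of 13 genes for pyruvate entry into mitochondria 4 were lower (Pdha1 by 0.29, SE 0.03) and 2 higher in Mettl14 cKO. In Mettl3 cKO 0 were called by edgeR, DESeq2 or limma-voom, with 1 lower at an unadjusted edgeR p under 0.05. Of 11 tested genes of gluconeogenesis and glycogen, 3 were higher and 3 lower in Mettl14 cKO, Pck2 (mitochondrial PEPCK) having fallen by 0.83 (SE 0.07). In Mettl3 cKO 0 of these were called by edgeR, DESeq2 or limma-voom, and 0 at an unadjusted edgeR p under 0.05. Of 14 other glycolytic isoforms tested, 5 were higher and 1 lower in Mettl14 cKO and 3 higher and 1 lower in Mettl3 cKO; Adpgk, an ADP-dependent glucokinase, rose in both by 0.30 (SE 0.04) and 0.20 (SE 0.04), the second ending under upper-quartile scaling (0.08, edgeR adjusted p = 0.113, in a range of 1.13e-12 to 0.113), and Ldhb, the other lactate dehydrogenase subunit, fell by 0.34 (SE 0.05) after Mettl3 loss.

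**Figure D5:**
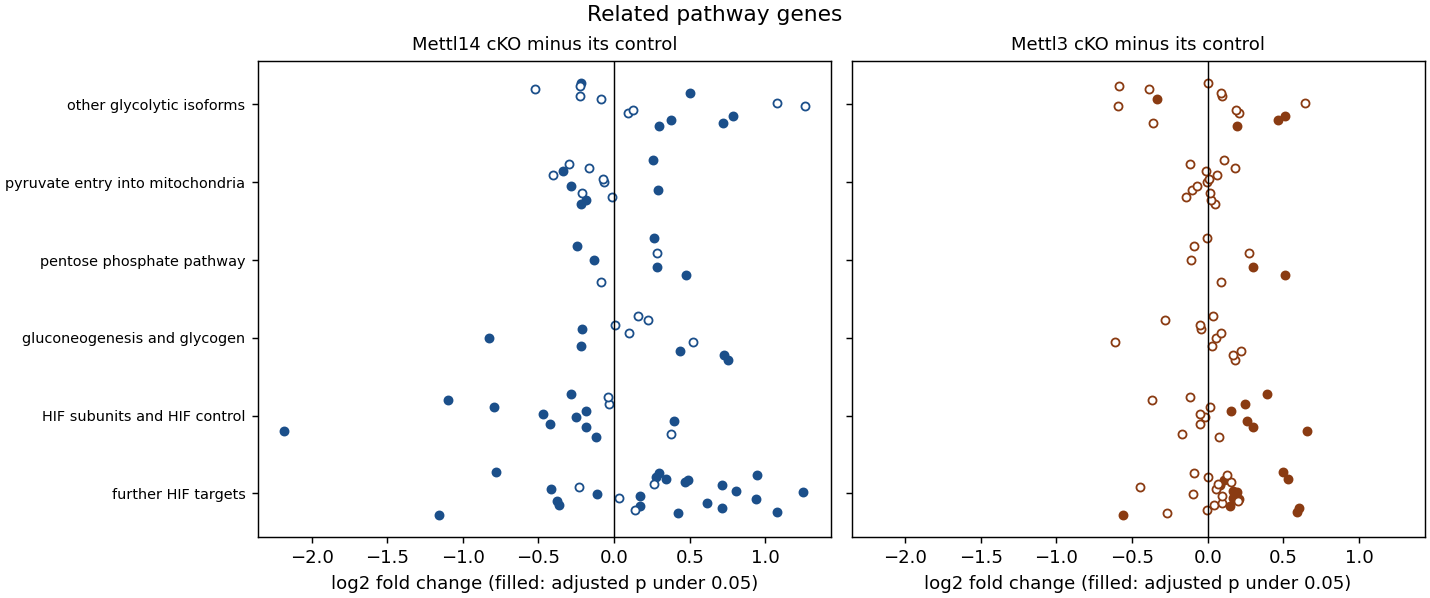
Log2 fold change of each tested gene of the 6 related lists in Mettl14 cKO (left) and Mettl3 cKO (right), 1 point per gene, filled where the adjusted p was under 0.05. The HIF control genes lie mostly left of 0 in the left panel, the further HIF targets mostly right of 0, and points of the right panel cluster nearer to 0.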

How the data were processed

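RNA of the nuclear fraction was isolated with Trizol, cleared of ribosomal RNA (RiboMinus) and made into stranded SMARTer libraries (v2), per the labels' protocols. The deposited files hold the authors' raw counts of reads per gene; the submitters' processing notes name the mm10 genome, HISAT2 2.1.0, HTSeq, Trimmomatic 0.38 and CASAVA. The sources used here do not give the annotation release, the strand setting or the handling of reads that match several places.

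Gene IDs were matched to GENCODE M21 (54409 matched, 37 did not, and 0 lines named no gene). Groups and replicate numbers came from the sample titles. Replicates correlated at r of at least 0.9957 (log2 CPM) and differed by more than sampling noise (chi-square divided by its degrees of freedom 1.41 to 1.97). TMM factors ran from 0.8343 to 1.151.

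edgeR 4.0.16 (R 4.3.3; TMM, filterByExpr with a minimum count of 10, robust glmQLFit and glmQLFTest) was fitted once to all 8 libraries with 4 group means (4 residual degrees of freedom). It was tested on simulated data. Calls were made at an adjusted p under 0.05 (Benjamini-Hochberg, over 21782 genes). CPM and RPKM use TMM-scaled sizes, and RPKM also uses the union of exons. Alternatives were RLE and upper-quartile scaling, DESeq2 1.42.0, limma-voom (limma 3.58.1), no filter, a minimum count of 50, only the compared libraries, a replicate block and leaving out each library.

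The genes and lists were chosen with earlier results of these data known. Values in every library are given for those of the 34 genes called with a log2 change of at least 0.5 in any comparison, for paralogues and for Hif1a, and beyond these for Aldoa. Others of the 34 are given by range, and related genes mostly by their change. From each related list up to 3 called genes with the smallest p were eligible.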

Additional observations from a re-analysis of the deposited data

Results flagged for a closer look

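For 16 of the 33 tested genes the Mettl14 and Mettl3 effects differed in a test of the difference itself (edgeR, adjusted p under 0.05, beside 33.2% of all genes). The values are log2 differences, the Mettl14 change minus the Mettl3 change. Among the enzymes Aldoa (0.23) and Gapdh (0.59) moved further up after Mettl14 loss, and Hk1 (-0.46), Hk2 (-0.32), Pfkp (-0.25), Eno1 (-0.13), Pkm (-0.66) and Ldha (-0.14) moved further down. Of the carriers the difference was 0.3 for Slc2a1 and -0.24 for Slc16a1. In the oxygen sensing group it was -0.27 for Hif1a and -0.63 for Egln1. Among the other HIF1 targets it was 0.72 for P4ha1, 0.29 for P4ha2, -0.91 for Bnip3 and -0.82 for Mxi1.

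Of these 16, Hk1, Hk2, Gapdh, Pkm, Slc2a1, Hif1a, Egln1, Bnip3, P4ha1 and Mxi1 kept their call under every alternative. The difference for P4ha2 was lost when any library but Mettl3 cKO replicate 2 was left out (edgeR adjusted p up to 0.321 in those fits, and 0.00117 to 0.371 over all alternatives). That for Ldha was -0.22 without Mettl14 control replicate 1.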

How the results depend on the processing

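Of the called members 17 of 26 (Mettl14), 8 of 17 (Mettl3), 10 of 16 (difference) and 25 of 31 (controls) kept direction and call under every alternative run. For Mettl14 cKO 14 were higher, and 9 under DESeq2. For Mettl3 cKO 16 were higher, and 8 under upper-quartile scaling, DESeq2, a minimum count of 50 or only the compared libraries and 23 with no filter; 1 was lower, and 5 under upper-quartile scaling and 4 at a minimum count of 50. For the difference 5 were higher, and 10 under upper-quartile scaling or a minimum count of 50 and 3 with no filter; 11 were lower, and 7 under the first pair. For the controls 10 were lower, and 6 with no filter. Over all genes the share of higher calls was 31.8% (upper-quartile scaling), 51% (minimum count of 50), 59.5% (only the compared libraries) or 91.2% (no filter) against 72.3% for Mettl3, 60.6%, 50.8% and 26% (no filter) against 38.4% for the difference, and 37.4% under upper-quartile scaling against 49.7% for the controls. Leaving out 1 library gave 11 to 15 higher and 10 to 12 lower for Mettl14, 15 to 19 and 1 to 1 for Mettl3, 4 to 5 and 11 to 12 for the difference, and 20 to 21 and 6 to 9 for the controls. Called values changed sign for Aldoa (-0.016), Slc2a3 (-0.031) and P4ha1 (-0.002) in Mettl3 cKO under upper-quartile scaling, and for Eno1 (0.027, and 0.008 at a minimum count of 50) and Ldha (0.023 and 0.004) in the difference. In the controls Slc2a3 turned to 0.090 with no filter and ran from -0.027 to 0.027 when 1 library was left out (0.027 without Mettl14 control replicate 1, 0.010 on leaving out Mettl14 cKO replicate 2). The cause was not tested.

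Same-numbered replicates deviated together at r of -0.0331 to 0.0987, so no strong shift shared by number was seen. These values cannot show whether same-numbered libraries were handled together, and the labels do not say. With the numbers as a replicate block 15 were higher and 12 lower for Mettl14, 16 and 1 for Mettl3, 5 and 11 for the difference, and 21 and 10 for the controls. The comparison of the difference in only the compared libraries was not run, since it needs all 8.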
